A study of Mus musculus with 3 samples.

Results

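Acly, Acss2, Slc25a1, Acaca, Acacb, Fasn, Me1, Thrsp, Mlxipl and Srebf1 supply acetyl-CoA and turn it into fatty acids, or switch the genes of that route on. They were chosen by name, with earlier results of these data known. Described are thus 10 of the 25154 genes named as columns in any of the 3 deposited tables of unique molecular identifiers (UMIs, each counted as 1 captured RNA molecule). All 10 had UMIs in every library. The tables hold single-nucleus RNA sequencing (snRNA-seq) of interscapular brown adipose tissue (BAT) from adult wild-type C57Bl6 mice (C57BL/6J in the study's methods), with 1 library each from untreated mice, from a sham operation and after denervation. Nuclei came from the floating layer of the digested tissue, which carries brown adipocytes (BAs) and fragmented vessels. The study used male mice, isolated nuclei from BAT at 8 weeks of age and gives 20 animals each for the untreated and the denervated experiment, without saying how they were combined. The denervated mice were also given tamoxifen by the study's description, and their denervated side was taken 3 days after the intercostal nerves of 1 side had been cut. For the sham library the labels alone were used. With 1 library per condition there is no replicate check, the condition and the library cannot be told apart, and no test was made. Every interval below is a 95% interval that covers counting error only.

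De novo lipogenesis starts with citrate that the carrier SLC25A1 exports from mitochondria and that ATP citrate lyase (Acly) cleaves to acetyl-CoA in the cytosol, while Acss2 makes acetyl-CoA from acetate. Acetyl-CoA carboxylase 1 (Acaca) makes the malonyl-CoA that fatty acid synthase (Fasn) polymerises with NADPH, part of which malic enzyme (Me1) supplies, and the malonyl-CoA made by carboxylase 2 (Acacb) at the mitochondrial surface restrains fatty acid import. The transcription factors SREBP1 (Srebf1) and ChREBP (Mlxipl) drive these genes in response to insulin and glucose, and Thrsp is a lipogenic nuclear and cytosolic protein. BAT is known for combining this synthesis with fatty acid oxidation.

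The libraries held 14971579 (untreated), 14725864 (sham) and 9420030 UMIs (denervated), and 10474, 11686 and 9571 nuclei were kept. Libraries shared 251 to 278 cell indices pairwise, against 238 to 275 for independent draws. Clusters were made in each library without the 10 genes and without the wider pathway list, and were named from marker lists. BA-like nuclei numbered 4712 untreated, 3262 sham and 5320 denervated, with medians of 1824, 1438.5 and 891 UMIs. White-like adipocyte nuclei numbered 123, 1067 and 973, endothelial cell (EC)-like nuclei 4896, 5241 and 2156, and pericyte (PC)-like nuclei 604, 1256 and 703. The summed brown adipocyte markers had 5536 to 6712 counts per 1000000 UMIs (CPM) in BA-like nuclei and 1137 to 1282 in white-like nuclei, and the white-like markers had 656 to 879 against 2528 to 3299. Of the sham white-like nuclei, 970 formed a cluster with the heat shock gene Dnajb1 among its leading genes, and the denervated white-like cluster was led by the chemokine gene Cxcl1, Slc7a10 and Ptx3. Smooth muscle markers were found inside the PC-like cluster of the untreated and the denervated library.

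The bases before the start of 4 of the members are shown. Of the 14 RefSeq start windows of the 10 members (build GRCm38.p6), 5 lay directly before the GENCODE start without any annotated exon, and those of Fasn, Acly, Slc25a1 and Mlxipl are given as 250 bases upstream, 5′ to 3′ on the gene's strand. The remaining one, of Srebf1, held 1 CCAAT match and no GC box and is not shown. Capitals mark, on either strand, the GC box (GGGCGG), the CCAAT box (spelled as its name), the E-box (CACGTG) or a form of the sterol response element (TCACNCCAC). The windows are chr11:120824548-120824797 (Fasn, minus strand), chr11:100528001-100528250 (Acly, minus), chr16:17928220-17928469 (Slc25a1, minus) and chr5:135089640-135089889 (Mlxipl, plus).
Fasn: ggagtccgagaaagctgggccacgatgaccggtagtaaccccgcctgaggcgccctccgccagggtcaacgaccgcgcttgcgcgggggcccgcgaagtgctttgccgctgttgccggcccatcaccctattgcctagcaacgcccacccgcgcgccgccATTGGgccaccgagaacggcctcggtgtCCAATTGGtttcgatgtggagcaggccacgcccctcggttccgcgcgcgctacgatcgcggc
Acly: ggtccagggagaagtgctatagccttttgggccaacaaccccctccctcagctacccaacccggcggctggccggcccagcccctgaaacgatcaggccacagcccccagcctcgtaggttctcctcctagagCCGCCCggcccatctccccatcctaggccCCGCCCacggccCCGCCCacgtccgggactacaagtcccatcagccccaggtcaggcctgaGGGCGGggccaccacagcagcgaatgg
Slc25a1: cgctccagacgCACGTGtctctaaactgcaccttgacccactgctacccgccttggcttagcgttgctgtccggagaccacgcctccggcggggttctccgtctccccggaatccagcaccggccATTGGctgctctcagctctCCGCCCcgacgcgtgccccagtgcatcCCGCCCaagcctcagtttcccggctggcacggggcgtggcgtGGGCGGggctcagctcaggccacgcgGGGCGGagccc
Mlxipl: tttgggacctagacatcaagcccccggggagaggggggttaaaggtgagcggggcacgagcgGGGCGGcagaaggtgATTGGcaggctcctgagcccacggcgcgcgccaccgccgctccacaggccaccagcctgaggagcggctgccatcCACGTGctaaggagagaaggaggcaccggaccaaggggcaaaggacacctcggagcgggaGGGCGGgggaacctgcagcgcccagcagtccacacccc
The Fasn window held 3 CCAAT matches and no GC box, with 2 of the 3 overlapping 59 and 62 bases before the start. The Acly window held 4 GC boxes and no CCAAT. Slc25a1 held 4 GC boxes, 1 CCAAT and 1 E-box, and Mlxipl held 2 GC boxes, 1 CCAAT and 1 E-box 98 bases before the start. CCAAT was found before 9 of the 14 member starts (8 members) and in 33.8% of 32851 promoter windows of the same length. The GC box was found before 7 of the 14 starts (6 members) and in 32.7% of windows, and the E-box before 2 starts and in 6.02%. The sterol response element form was found before 1 start, another one of Mlxipl, and in 1.05% of windows. A match is a description of these letters only.

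The 10 members together made up 2.88% of all UMIs in untreated BA-like nuclei, 2.37% in denervated and 1.07% in sham BA-like nuclei. In white-like nuclei the shares were 2.25%, 1.01% and 0.878% in untreated, denervated and sham. In EC-like nuclei they were 0.299%, 0.339% and 0.108%, and in PC-like nuclei 0.220%, 0.218% and 0.0699%. In all 4 classes the sham library therefore held the lowest share. Adipocyte-defining genes also had UMIs in the vascular classes, and the part of free RNA in those shares was not tested. The plot of members by class and library shows each gene.

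**Figure D1:**
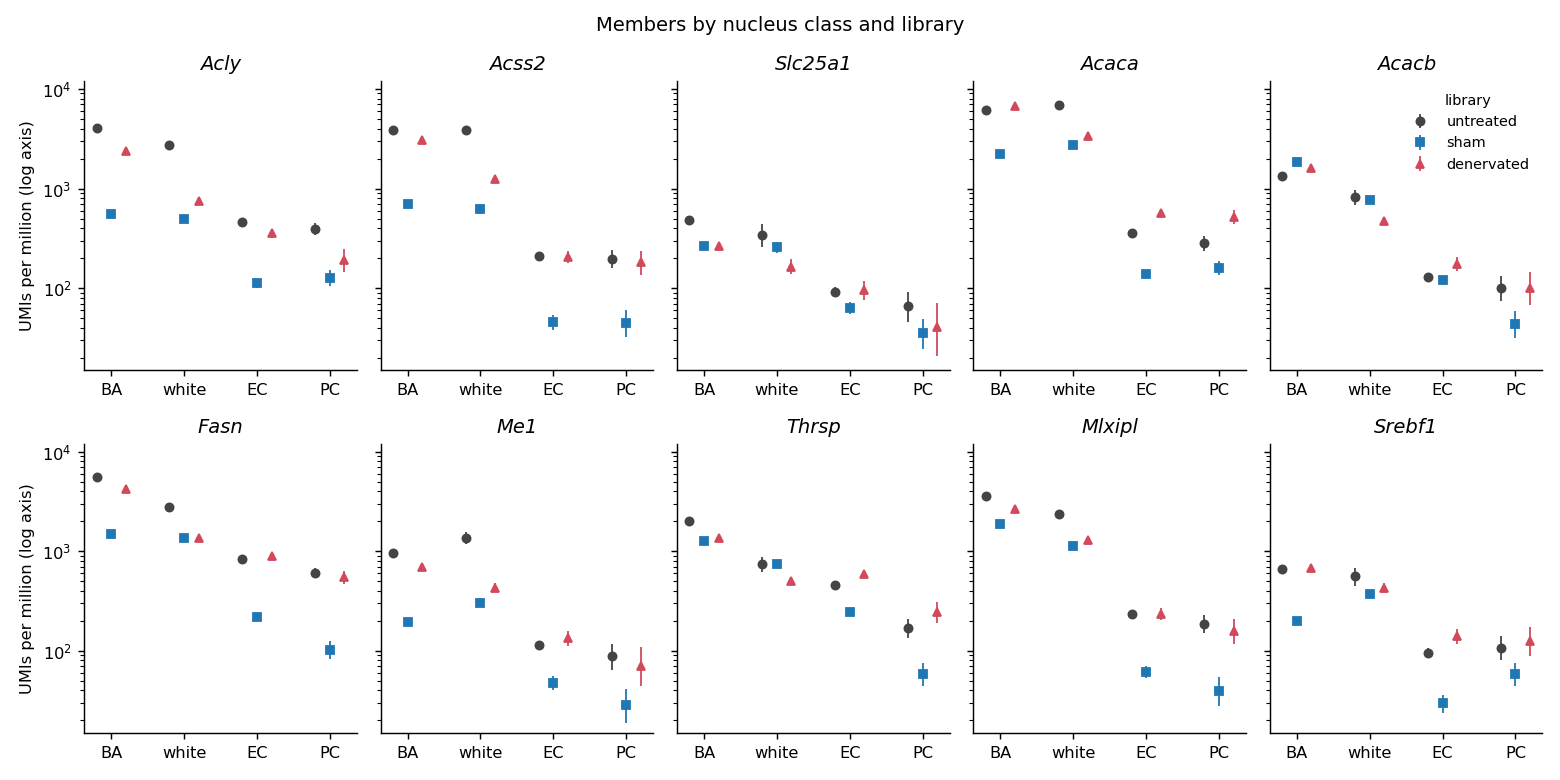
CPM (log axis) of each member in BA-like (BA), white-like adipocyte (white), EC-like (EC) and PC-like (PC) nuclei of the untreated (circles), sham (squares) and denervated (triangles) library, with 95% Poisson intervals for counting error. Adipocyte classes lie above vascular classes for 9 of the 10 genes in every library, the exception being Thrsp, whose denervated EC-like level of 588 lies above the white-like level of 502, and the sham squares lie lowest in BA-like nuclei for all but Slc25a1 and Acacb.

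Among the genes of acetyl-CoA and citrate supply, Acly (ENSMUSG00000020917, GRCm38 chromosome 11, 100476353 to 100528000, minus strand) had 4096 CPM (4053 to 4139) in untreated, 560 (539 to 582) in sham and 2357 (2316 to 2399) in denervated BA-like nuclei. The order was untreated over denervated over sham with no overlap. White-like nuclei had 2760, 498 and 756 CPM in untreated, sham and denervated, and EC-like nuclei had 466, 112 and 356. Acly was thus lowest in the sham library in both adipocyte classes and in ECs. In nuclei thinned to 800 UMIs, 92.0% of untreated, 32.3% of sham and 76.8% of denervated BA-like nuclei carried an Acly UMI, against 30.1%, 8.93% and 21.4% of EC-like nuclei, a class expected to make little of it. The thinned shares leave out shallower nuclei and cover 4340, 2899 and 3143 BA-like but only 1643, 997 and 126 EC-like nuclei, with 3253, 4244 and 2030 EC-like nuclei left out. Unthinned, at the medians above and at 656, 505 and 357 UMIs in EC-like nuclei, the shares were 95.2%, 47.3% and 73.2% against 25.04%, 5.90% and 12.6%.

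Acss2 (ENSMUSG00000027605, chromosome 2, 155517948 to 155585724, plus strand) had 3874 CPM (3833 to 3916) in untreated, 702 (678 to 726) in sham and 3084 (3037 to 3131) in denervated BA-like nuclei. Its untreated white-like level of 3870 did not differ from the BA-like level beyond counting error, whereas denervated white-like nuclei had 1244 and sham white-like nuclei 622. The gene lies over Gss on the other strand for 22544 bases, and counting by strand is not stated. Slc25a1 (ENSMUSG00000003528, chromosome 16, 17925223 to 17928219, minus strand) had 481 CPM (466 to 495) in untreated, 266 (252 to 281) in sham and 263 (249 to 277) in denervated BA-like nuclei. The sham and denervated levels of the citrate carrier did not differ beyond counting error, and both lay below the untreated level. Its white-like levels were 338, 256 and 165 CPM in the same order of libraries.

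Of the carboxylases, Acaca (ENSMUSG00000020532, chromosome 11, 84129672 to 84401651, plus strand) had 6164 CPM (6112 to 6217) in untreated, 2233 (2191 to 2276) in sham and 6786 (6717 to 6856) in denervated BA-like nuclei. White-like nuclei had 6926, 2732 and 3397 CPM. Over whole classes Acaca was higher in white-like than in BA-like nuclei of the untreated and the sham library and lower in those of the denervated library. The direction turned in the untreated library against the heat shock-high BA-like cluster (log2 -0.23) and by mean log2 values (-0.64), and the 97 sham white-like nuclei outside the heat shock-high cluster had 1684 CPM (1479 to 1909), below the BA-like level. Acacb (ENSMUSG00000042010, chromosome 5, 114146535 to 114250761, plus strand) had 1351 CPM (1326 to 1375) in untreated, 1841 (1803 to 1880) in sham and 1603 (1570 to 1637) in denervated BA-like nuclei. It was the single member whose highest BA-like level was in the sham library. White-like nuclei had 813, 763 and 473 CPM of Acacb, below BA-like nuclei in every library.

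Fasn (ENSMUSG00000025153, chromosome 11, 120805846 to 120824547, minus strand) had 5591 CPM (5541 to 5641) in untreated, 1500 (1465 to 1535) in sham and 4217 (4162 to 4272) in denervated BA-like nuclei. White-like nuclei had 2784, 1355 and 1356 CPM, a log2 ratio of denervated over sham of 0.00 (-0.11 to 0.11), where BA-like nuclei had 1.49. Me1 (ENSMUSG00000032418, chromosome 9, 86581371 to 86695953, minus strand) had 951 CPM (931 to 972) in untreated, 197 (184 to 210) in sham and 697 (674 to 719) in denervated BA-like nuclei. Its white-like levels were 1359, 305 and 430 CPM. Over whole classes they lay above BA-like nuclei in the untreated and sham library and below them in the denervated one, as for Acaca. The 97 sham white-like nuclei outside the heat shock-high cluster had 255 CPM (180 to 352), overlapping the BA-like interval. In the untreated library the log2 ratio to BA-like nuclei lay between 0.06 and 0.76 under the alternatives.

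Among the regulators, Thrsp (ENSMUSG00000035686, chromosome 7, 97412938 to 97417730, minus strand) had 2012 CPM (1982 to 2042) in untreated, 1268 (1236 to 1301) in sham and 1357 (1326 to 1388) in denervated BA-like nuclei. Mlxipl (ENSMUSG00000005373, chromosome 5, 135089890 to 135138382, plus strand) had 3597 CPM (3557 to 3638), 1885 (1846 to 1925) and 2675 (2631 to 2719) in the same order. Srebf1 (ENSMUSG00000020538, chromosome 11, 60199089 to 60222581, minus strand) had 658 CPM (641 to 675), 199 (187 to 212) and 671 (650 to 694). For Srebf1 the untreated and denervated levels overlapped and the sham level lay far below, whereas Thrsp and Mlxipl were highest in the untreated library. White-like nuclei had 742, 752 and 502 CPM of Thrsp, 2356, 1126 and 1309 of Mlxipl and 558, 372 and 428 of Srebf1 in untreated, sham and denervated. The last 109 bases of Srebf1 lie over Rai1 on the other strand, a gene with 4230 UMIs in all against 13184 for Srebf1, so that reads there could not be assigned without strand.

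To ask which nuclei carry the route, BA-like nuclei were compared with vascular nuclei of the same library. In the untreated library all 10 members were higher in BA-like than in EC-like nuclei by a log2 ratio over 1, a size that 26.9% of 5483 genes reached upward and 24.8% downward among genes with at least 50 CPM in either class. The log2 ratio ran from 2.14 (2.06 to 2.22) for Thrsp to 4.21 (4.10 to 4.32) for Acss2, with a median of 3.09 against 0.17 over all genes. Over PC-like nuclei all 10 were again past 1, where 22.7% of genes were higher and 24.9% lower, with a median of 3.50 (2.59 without doublet removal, 4.19 after subtraction of ambient RNA) and a range from 2.61 for Srebf1 to 4.44 for Acaca. The same count of 10 held over EC-like nuclei in the sham library (background 29.1% higher) and in the denervated library (25%), and over PC-like nuclei in both (23.8% and 22.4%). Some members were under 50 CPM in the vascular class and were counted there only through their BA-like level. These were Acss2, Me1 and Srebf1 in sham EC-like nuclei, Acss2, Slc25a1, Acacb, Me1 and Mlxipl in sham PC-like nuclei, and Slc25a1 in denervated PC-like nuclei. The largest of these ratios was that of Mlxipl over sham PC-like nuclei, at 5.57.

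In single-nucleus data, free RNA gives UMIs in nuclei that do not express a gene, so each member's vascular level was set beside those of 6 adipocyte-defining genes. In untreated EC-like nuclei the members had 5.41% to 22.7% of their BA-like level (median 11.7%), and Adipoq, Plin1, Cidec, Lipe, Pnpla2 and Ucp1 had 5.92% to 35.9% (median 19.97%). In denervated EC-like nuclei the ranges were 6.67% to 43.4% for members and 9.14% to 42.6% for the adipocyte genes, and in sham EC-like nuclei 3.27% to 24.2% and 3.18% to 19.1%. Thrsp, the member with the highest share in untreated EC-like nuclei at 22.7%, stood beside Ucp1 at 25.4% there, and at 43.4% beside Ucp1 at 41.4% in the denervated library. No member had an interval wholly above the highest upper bound of the adipocyte genes, except Acly (22.7%, 18.8 to 27.2) and Srebf1 (29.6%, 22.3 to 38.6) in sham PC-like nuclei, where that bound was 10.8%. In sham EC-like nuclei some members had a higher percent than any of the 6 adipocyte genes, but with intervals that reached below the highest upper bound of 20.7%. The bounds of the 6 genes lay far apart, from 5.28% to 39.1% in untreated EC-like nuclei, so few members could lie outside them. The part of free RNA in the vascular levels was not tested by this.

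**Figure D2:**
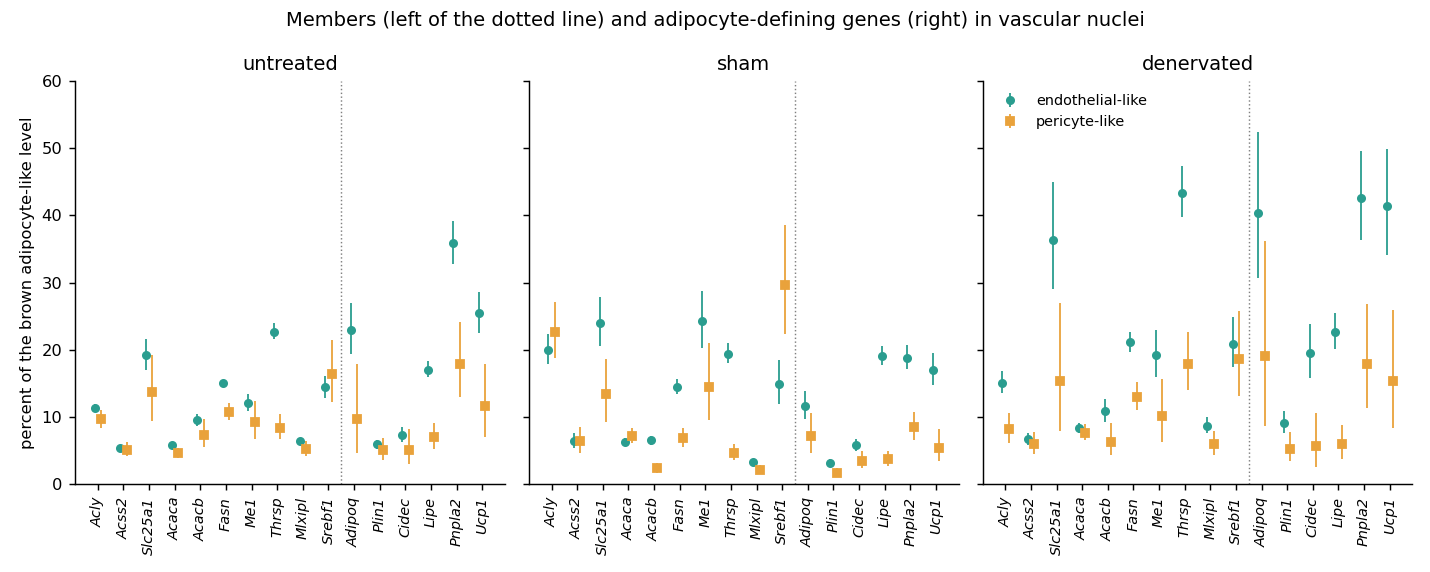
Level in EC-like (circles) and PC-like nuclei (squares) as a percent of the level in BA-like nuclei of the same library, for the 10 members and, right of the dotted line, 6 adipocyte-defining genes, with exact 95% intervals for counting error. The members lie between 2.10% and 43.4%, and Acly and Srebf1 in sham PC-like nuclei are the 2 whose intervals lie wholly above those of the adipocyte genes.

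White-like adipocytes, a small class in untreated BAT, were next compared with BA-like nuclei. In the untreated library 2 members were lower by a log2 ratio over 1, Thrsp at -1.44 (-1.70 to -1.19) and Fasn at -1.01 (-1.14 to -0.87), and none was higher by that much, where 21.5% of 4855 genes were lower and 13.6% higher. Me1 was higher in white-like nuclei at 0.52 (0.32 to 0.70) and Acaca at 0.17 (0.08 to 0.25). Acss2 and Srebf1 lay within counting error, and the median over the members was -0.54. In the denervated library all 10 members were lower in white-like nuclei, 6 of them past 1 against 18.6% of genes, with a median of -1.17. Acacb had the lowest ratio there, at -1.76 (-1.91 to -1.62), and Srebf1 the one nearest 0, at -0.65. In the sham library Srebf1 (0.90), Me1 (0.63) and Acaca (0.29) were higher in white-like nuclei and Acacb (-1.27), Thrsp (-0.75) and Mlxipl (-0.74) were the lowest. Heat shock genes (6 summed) moved with the class, at 10226, 24475 and 12064 CPM in untreated, sham and denervated white-like nuclei against 2325, 3474 and 2923 in BA-like nuclei, and their part in the ratios was not tested beyond a narrower reference. Against the heat shock-high BA-like cluster of the untreated library, no member was past -1, with Thrsp at -0.53, Fasn at -0.50 and the lowest, Mlxipl, at -0.80, while Acaca turned to -0.23, Slc25a1 to 0.14, and the median became -0.23. By mean log2 values over nuclei 6 members were past -1, from Acss2 at -1.19 to Thrsp at -1.98. The share of all genes past -1 was not counted by this measure. The 97 sham white-like nuclei with 2519 CPM of heat shock genes had 283 CPM of Acly, 262 of Acss2, 1684 of Acaca, 890 of Fasn and 573 of Acacb, below the 531, 677, 2892, 1425 and 791 of the 970 heat shock-high ones, with intervals that did not overlap. Thrsp went the other way, at 1063 CPM (901 to 1244) against 704 (652 to 760), and the intervals of Slc25a1, Me1, Mlxipl and Srebf1 overlapped. The 97 and the 970 nuclei had medians of 1404 and 909.5 UMIs and were not matched. The share of all genes with intervals apart was not counted.

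The next comparison asked how BA-like nuclei differed after denervation. Acly, Slc25a1 and Thrsp were lower than in untreated BA-like nuclei by a log2 ratio over 0.5, 3 of the 10 members against 4.95% of 4544 genes, and no member was higher by that much, against 6.78% of genes. Acly stood at 57.6% of the untreated level (log2 -0.80, -0.83 to -0.77), Slc25a1 at 54.7% (-0.87, -0.96 to -0.78) and Thrsp at 67.4% (-0.57, -0.61 to -0.53). Me1 (-0.45), Mlxipl (-0.43), Fasn (-0.41) and Acss2 (-0.33) were lower by less. Both carboxylase genes were higher, Acacb by a log2 ratio of 0.25 (0.21 to 0.29) and Acaca by 0.14 (0.12 to 0.16), and Srebf1 lay within counting error at 0.03. The median over the members was -0.42, against -0.01 over all genes.

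Depth and cluster make-up moved with this comparison, and the sets of nuclei in this paragraph were compared beside the whole class, that of the largest clusters being added after the values were seen. The largest BA-like cluster held 73.7% of untreated but 40.4% of denervated BA-like nuclei, and the heat shock-high cluster 19.9% and 31.3%. By mean log2 values over nuclei 7 members were past -0.5, with a median of -0.86. The share of all genes past -0.5 was counted for the whole class only, not by mean log2 values or in the other sets of nuclei. Between the largest clusters alone the median was -0.28, and 2 members stayed past -0.5, Acly (-0.66) and Slc25a1 (-0.56). With 2490 BA-like nuclei of each library matched on UMIs per nucleus the median was -0.12 and 1 member was past -0.5, Mlxipl at -0.62, while Acly was at -0.47, Slc25a1 at -0.31, Fasn at 0.01, Thrsp at 0.08 and Acaca at -0.12. Srebf1 was at 0.33 in the matched nuclei. Acly, Acss2, Slc25a1, Me1 and Mlxipl were below 0 and Acacb above 0 in all 4 sets of nuclei that the plot of denervated over untreated ratios compares, and Acaca, Fasn and Thrsp changed sign with matching. By mean log2 values all 10 members were below 0, Acacb at -0.25 and Srebf1 at -0.45.

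**Figure D3:**
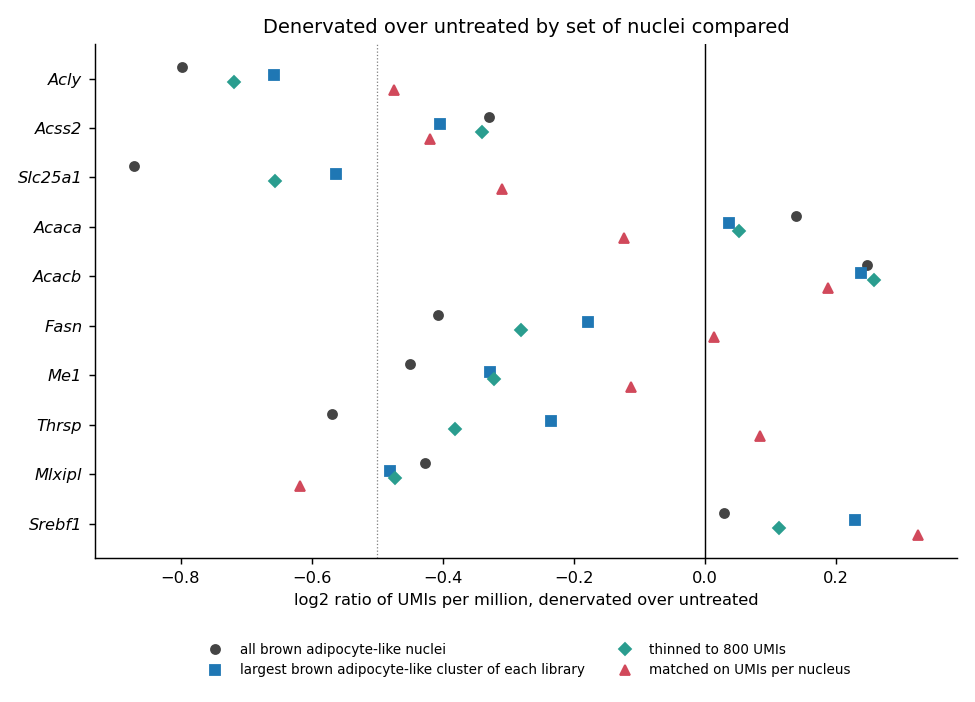
Log2 ratio of CPM, denervated over untreated, for each member in all BA-like nuclei (circles), in the largest BA-like cluster of each library (squares), after thinning each nucleus to 800 UMIs (diamonds) and in nuclei matched on UMIs (triangles), with a dotted line at -0.5. Acly and Slc25a1 lie left of -0.4 and -0.3 in every set, while Fasn and Thrsp move to 0.01 and 0.08 when nuclei are matched.

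The sham library gave the widest differences. Against untreated BA-like nuclei 9 of the 10 members were lower by a log2 ratio over 0.5, against 20.3% of 4856 genes, and none was higher by that much, against 20.9%. Acly stood at 13.7% of the untreated level (log2 -2.87, -2.93 to -2.81), Acss2 at 18.1% (-2.47), Me1 at 20.7% (-2.27), Fasn at 26.8% (-1.90), Srebf1 at 30.3% (-1.72) and Acaca at 36.2% (-1.46). Mlxipl (52.4%), Slc25a1 (55.4%) and Thrsp (63.0%) were lower by less. Acacb was higher, at 136% (log2 0.45, 0.41 to 0.49). The median was -1.59 against -0.01 over all genes, and it lay between -1.64 and -1.51 under every alternative tried. Matched on UMIs per nucleus 8 members were past -0.5, Thrsp being at -0.43. The share of all genes was not counted in matched nuclei.

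The other classes were compared in the same way. In sham EC-like nuclei 9 members were lower than untreated by more than 0.5 (background 16.2%), in PC-like nuclei all 10 (15.1%) and in white-like nuclei 7 (32.2%). In sham PC-like nuclei Acss2, Slc25a1, Acacb, Me1 and Mlxipl had 28.5 to 44.7 CPM. In sham EC-like nuclei Acss2, Me1 and Srebf1 had 29.7 to 47.7 CPM. Being under 50 CPM, these were counted there only through their untreated level, and Me1 in PC-like nuclei rested on 28 sham and 44 untreated UMIs. Fasn was at -1.90 in BA-like, -1.95 in EC-like, -2.55 in PC-like and -1.04 in white-like nuclei, and Acss2 at -2.47, -2.20, -2.14 and -2.64. Acacb was at 0.45 in BA-like but -1.19 in PC-like nuclei, and in white-like nuclei Thrsp (0.02), Acacb (-0.09) and Slc25a1 (-0.40) lay within counting error. Member levels in untreated EC-like nuclei were 5.41% to 22.7% of the BA-like level, where adipocyte-defining genes had 5.92% to 35.9%, and the part of free adipocyte RNA in the vascular ratios was not tested. The mitochondrial share of UMIs also differed, at 6.41% in sham, 3.14% in untreated and 1.79% in denervated BA-like nuclei. In BA-like nuclei 9 members were past -0.5 both on totals without mitochondrial UMIs and with nuclei limited to 10% of them, without a share of all genes counted. The summed brown adipocyte markers were not lower in sham BA-like nuclei, at 6683 CPM against 5536, and Ucp1 had 415 CPM (396 to 433) against 344 (332 to 357). Clusters had been named from the same marker list, so its level is not independent of the class.

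Denervated BA-like nuclei were therefore higher than sham nuclei for most members, and these values share their libraries with both comparisons above. A log2 ratio over 0.5 was reached by 7 members (background 22% higher) and by none downward (22.3%). The count was 6 in the largest clusters, matched on UMIs, without the second clustering, on totals without mitochondrial UMIs and by mean log2 values, and by the last Thrsp (-0.63) and Acacb (-0.62) were past -0.5. No share of all genes was counted for these alternatives. Acss2 stood at 439.5% of the sham level (log2 2.14, 2.08 to 2.19), Acly at 421% (2.07), Me1 at 354% (1.82), Srebf1 at 337% (1.75), Acaca at 304% (1.60), Fasn at 281% (1.49) and Mlxipl at 142% (0.50). Slc25a1 lay within counting error at -0.02, Thrsp was at 0.10 and Acacb was lower at -0.20. In whole classes Acly, Fasn, Me1, Acss2, Mlxipl and Thrsp of the denervated library were thus higher than sham and lower than untreated, which did not hold for Fasn and Thrsp against untreated in matched nuclei (0.01 and 0.08) or for Thrsp against sham by mean log2 values. In the plot of library ratios the 3 comparisons stand side by side.

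**Figure D4:**
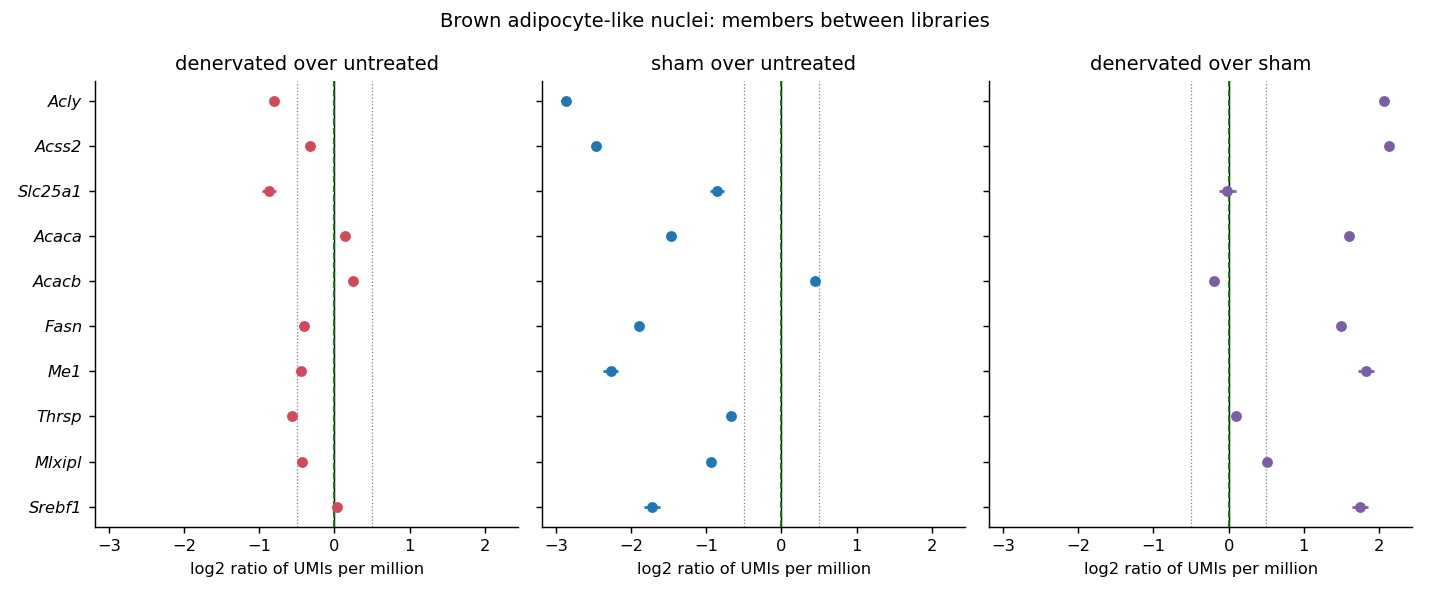
Log2 ratio of CPM in BA-like nuclei for each member in 3 comparisons of libraries, with exact 95% intervals for counting error that are mostly narrower than the points, dotted lines at -0.5 and 0.5 and a dashed line at the median over all genes. The ratios run from -0.87 to 0.25 for denervated over untreated, from -2.87 to 0.45 for sham over untreated and from -0.20 to 2.14 for denervated over sham.

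White-like nuclei of the denervated library were lower throughout. All 10 members were lower than in untreated white-like nuclei with intervals clear of 0, and 9 were past -0.5 (background 23.5%). The share of all genes with intervals clear of 0 was not counted. The ratios ran from -0.38 (-0.71 to -0.04) for Srebf1 to -1.87 (-2.04 to -1.69) for Acly. Acss2 was at -1.64 there and at -0.33 in BA-like nuclei, and Acaca at -1.03 and 0.14, the latter turning to -0.12 in matched BA-like nuclei and to -0.064 by mean log2 values. White-like nuclei were not matched, with medians of 1280 UMIs in the untreated and 816 in the denervated library. The untreated values rest on 123 nuclei, and the difference between the classes was not tested.

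Differences between BA-like nuclei of 1 library were described after the clusters had been seen. The heat shock-high BA-like cluster of the untreated library (937 nuclei, 10284 CPM of the 6 heat shock genes, median 1130 UMIs) was set against the largest cluster (3473 nuclei, 1165 CPM, median 2042 UMIs). Thrsp had 1069 against 2162 CPM (log2 -1.02, -1.10 to -0.93), Slc25a1 307 against 506 (-0.72), Fasn 3930 against 5851 (-0.57) and Srebf1 472 against 687 (-0.54), the 4 members lower by over 0.5 where 12.2% of genes were. Acaca had 8133 against 5851 CPM (0.48, 0.44 to 0.51), and Mlxipl (0.23) and Acss2 (0.19) were higher too. In the denervated library Thrsp was at -1.74, Slc25a1 at -1.55, Fasn at -0.93, Srebf1 at -0.90, Acly at -0.56 and Me1 at -0.51, 6 members past -0.5 against 18.6% of genes, and Acaca was at 0.40, Mlxipl at 0.25 and Acss2 at 0.12. In the sham library no member was past -0.5 (8.98% of genes were), and the ratios ran from -0.39 for Me1 to 0.28 for Srebf1.

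The members were also compared by UMIs per nucleus. Splitting the BA-like nuclei of a library at their median, the deeper nuclei had more Thrsp (log2 0.66 untreated, 1.23 denervated), Slc25a1 (0.48 and 1.15), Fasn (0.40 and 0.73), Me1 (0.36 and 0.46), Acly (0.32 and 0.45) and Srebf1 (0.31 and 0.64). They had less Acaca (-0.35 and -0.29), Mlxipl (-0.27 and -0.22) and Acss2 (-0.11 and -0.17). The sham ratios ran from -0.25 for Slc25a1 to 0.39 for Acss2. The heat shock-high nuclei were also shallower, and the clusters were compared again at matched UMIs, with 529 untreated and 403 denervated nuclei a side. In the untreated library none of the 4 members then stayed past -0.5, with Thrsp at -0.49, Slc25a1 at -0.38, Srebf1 at -0.34 and Fasn at -0.31, and Mlxipl lay within counting error at 0.03. In the denervated library 3 of the 6 stayed past -0.5, Thrsp (-1.37), Fasn (-0.72) and Slc25a1 (-0.69), while Srebf1 was at -0.42, Acly at -0.41 and Me1 at -0.23, and Mlxipl (0.12) and Acss2 (0.06) lay within counting error. Acaca was at 0.31 and 0.34. With 706 sham nuclei a side Srebf1 was at 0.54 (0.24 to 0.84), the one sham member past 0.5, and the others lay between -0.30 and 0.15. Shares of all genes past these sizes were not counted at matched UMIs. Of the annotated gene spans, those of Slc25a1 (2997 bases), Thrsp (4793), Fasn (18702) and Srebf1 (23493) were the 4 shortest among the members, and that of Acaca (271980) the longest. The others were Mlxipl (48493), Acly (51648), Acss2 (67777), Acacb (104227) and Me1 (114583). A part of span in these ratios was not tested.

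**Figure D5:**
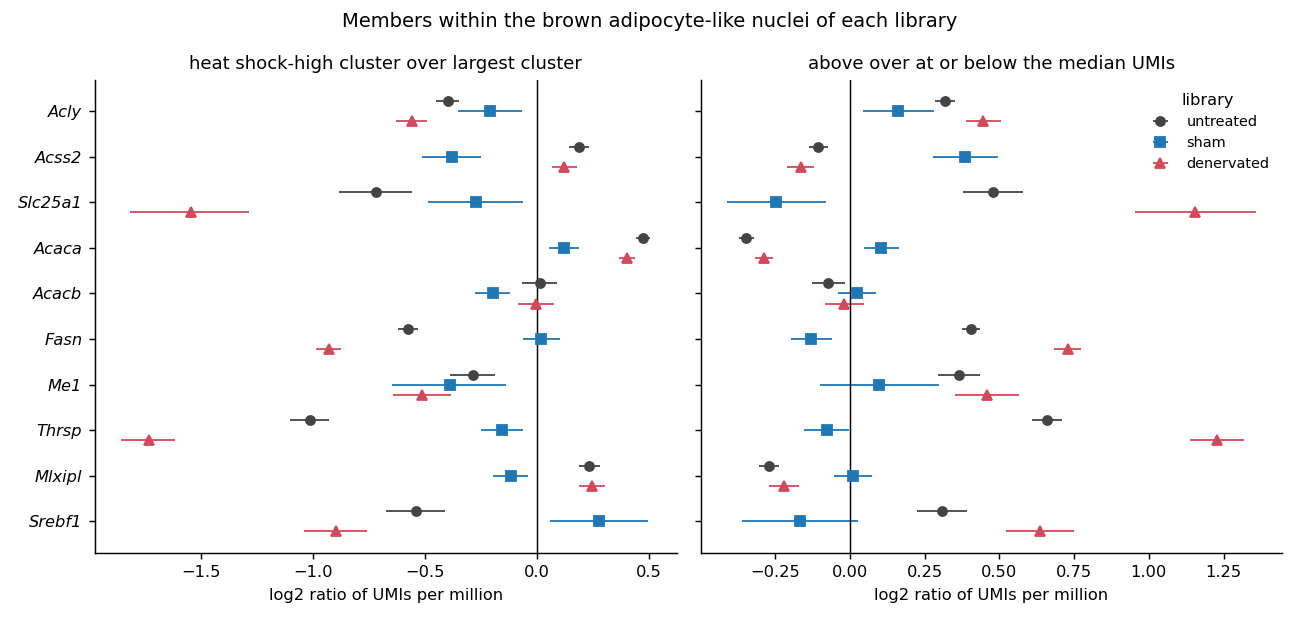
Log2 ratio of CPM for each member within the BA-like nuclei of 1 library, for the heat shock-high cluster over the largest cluster (left) and for nuclei above over those at or below the library's median UMIs (right), with exact 95% intervals for counting error. Thrsp, Slc25a1, Fasn and Srebf1 lie left of 0 in the left panel and right of 0 in the right panel in the untreated and denervated library, Acaca, Mlxipl and Acss2 lie the other way, and the sham squares lie between -0.39 and 0.39.

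Across single BA-like nuclei thinned to 800 UMIs the members varied together weakly. Over 3143 denervated nuclei Pearson's r of a member with the summed other members ran from 0.07 for Slc25a1 to 0.36 for Fasn and Acly, and over 4340 untreated nuclei from 0.03 for Acaca to 0.21 for Acly. Over 2899 sham nuclei it ran from 0.03 for Acacb to 0.18 for Fasn. The highest of the 45 pairs in each library was Acly with Fasn in the denervated (0.32) and sham library (0.17), and Fasn with Thrsp in the untreated one (0.19). These are descriptions of sparse counts within 1 library. With the summed heat shock genes, r was -0.16 for Thrsp and -0.15 for Fasn in the denervated library and within 0.09 of 0 for every member in the other libraries.

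Of a wider list of 65 genes that feed, partner or regulate the route, 51 reached 50 CPM in untreated BA-like or EC-like nuclei. Of these, 39 were higher in BA-like nuclei by over 1 (26.9% of all genes). They included all 17 genes of acetyl-CoA and citrate supply that reached 50 CPM, out of 19 listed. Pdk3 (-2.14) and Pdp1 (-0.90) of the 19 were lower but had under 50 CPM in both classes. Dld, Pdhx, Pdk1, Pdk4, Pdp2, Me3, G6pdx, Mid1ip1, Nr1h3, Ppargc1b, Bhlhe40 and Prkaa2 had under 50 CPM in EC-like nuclei. These were counted only through their BA-like level. Rxra (-2.02), Akt1 (-1.95) and Nr1h2 (-1.04), chosen for mention after their values were seen, were the 3 of the 51 lower by over 1 (24.8% of all genes were). All 3 had under 50 CPM in BA-like nuclei and were counted only through their EC-like level. In denervated over untreated BA-like nuclei 12 of 48 were lower by over 0.5 (4.95% of all genes) and 1 was higher (6.78%), with a median of -0.16. The list was compared in whole classes only, not in matched nuclei, where the members' median went from -0.42 to -0.12. The 4 lowest were Prkab1, a subunit of the kinase AMPK (-0.99), G6pdx, which opens the pentose phosphate pathway (-0.98), Insig1, which retains SREBP at the endoplasmic reticulum (-0.89), and Pgd (-0.73). The 4 highest were Pgls (0.66), Pparg, the adipocyte transcription factor (0.31), Idh2 (0.26) and Acss1 (0.24). Prkab1 had 55.2 CPM in untreated, 30.4 in sham and 27.7 in denervated BA-like nuclei, and Insig1 had 1059, 422 and 571. Prkab1 was thus counted, here and for sham over untreated, only through its untreated level.

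In sham over untreated BA-like nuclei 27 of 51 listed genes were lower (20.3% of all genes) and 5, or 9.80%, were higher (20.9%), with a median of -0.52. The share was largest in synthesis partners (5 of 7, the other 2 being higher) and in acetyl-CoA and citrate supply (12 of 17), and NADPH supply (5 of 10) and regulators (5 of 17) followed. The 5 higher genes, named after their values were seen, were Pdk4, a kinase that switches off pyruvate dehydrogenase (1.72), Nr1h2 (0.93), Acsl1, which activates long-chain fatty acids (0.92), Mlycd, which degrades malonyl-CoA (0.73), and Ppargc1b (0.54). In denervated over sham BA-like nuclei 17 of 50, or 34%, were higher (22% of all genes) and 5 lower (22.3%), the latter being Pdk4 (-1.82), Nr1h2 (-1.18), Acsl1 (-1.03), Mlycd (-0.998) and Pdp2 (-0.69). Nr1h2 had 33.3 CPM in untreated and 27.9 in denervated BA-like nuclei, and Mlycd 36.9 and 30.5. Both lay under the 50 CPM needed there and were counted in these 2 comparisons only through their sham level.

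Over the 12 combinations of class and library, the 5 genes outside the members whose levels most resembled their mean profile were Tmem45b (Pearson's r 0.99), Hk2, the hexokinase of insulin-responsive tissues (0.99), Aacs, which makes acetoacetyl-CoA in the cytosol (0.98), H2-Q10 (0.98) and A530020G20Rik (0.98), out of 7358 genes. The points share libraries and depth, and classes set much of the likeness. Tmem45b had 1854 CPM in untreated, 449 in sham and 1450 in denervated BA-like nuclei, and Hk2 had 1167, 496 and 863. Among the members themselves, r with the mean of the other 9 was highest for Mlxipl (0.99) and lowest for Thrsp (0.89).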

How the data were processed

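The 3 libraries of sorted nuclei were analysed, 1 per condition. The authors deposited raw UMI counts per nucleus and gene from the BD Rhapsody pipeline (version 1.9-nuclei, GRCm38 with GENCODE M19, per the file headers of the untreated and denervated tables); the sham table has no header, and the submitters' processing notes name Seurat 4.0.6 and GRCh38. Strand use is not given in the sources used here. Nuclei were required to have 200 detected genes and a mitochondrial share no higher than 50%. Marker UMIs were summed for endothelial, adipocyte, and pericyte with fibroblast lists, and a nucleus was removed as a doublet where the lower of a pair of sums had at least 3 UMIs and at least 25% of the higher, which left out 1318, 2341 and 891 nuclei (untreated, sham, denervated). Each library was clustered alone (2000 variable genes, 30 components, 20 neighbours, Louvain at resolution 0.5) without the members and pathway genes. A cluster took the name whose markers scored highest (mean log2 ratio to the lower quartile of clusters, at least 1.5) where at least 3 were detected, and stayed unnamed where another lineage scored within 1.5. A mixed brown and white-like sham cluster was clustered again, by a rule made after seeing the data, and left 190 nuclei unnamed.

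Counts were summed per class and library and scaled to 1000000 UMIs (CPM) with exact Poisson intervals. Ratios have exact conditional binomial intervals and shares exact binomial ones, all at 95%. UMIs are molecules, and intervals cover counting error only. With 1 library a group no test was made. A log2 ratio of 1 between classes or 0.5 between libraries, in genes with at least 50 CPM in either group, was the size counted over all genes. Named were all 10 members, the 4 highest and 4 lowest pathway genes after denervation and the 5 genes most alike, by Pearson's r over log2(CPM + 10). The members and lists were chosen with earlier results of these data known. Scripts in Python 3.11.15, with igraph 0.11.9 for the clustering, scikit-learn 1.9.0 for neighbours, scipy 1.17.1 for the intervals, and pandas 2.3.3 and numpy 2.4.6 for the tables, were tested on simulated data. Alternatives covered filters, doublets, ambient RNA, thinning, matching, totals and mean log2 values. Positions are from GENCODE M21 on GRCm38.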

Additional observations from a re-analysis of the deposited data

Results flagged for a closer look

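With 1 library per condition none of these differences between classes was tested, and each value is a log2 ratio of CPM whose sign, with its counting interval, was opposite in at least 1 pair of classes. For denervated over untreated, Acaca was at 0.14 in BA-like, 0.65 in EC-like and 0.88 in PC-like nuclei and at -1.03 in white-like nuclei. Acacb was at 0.25 in BA-like and 0.45 in EC-like nuclei and at -0.78 in white-like nuclei. Thrsp was at 0.37 in EC-like and 0.52 in PC-like nuclei, and at -0.57 in BA-like and -0.56 in white-like nuclei. Srebf1 was at 0.56 in EC-like and -0.38 in white-like nuclei.

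For sham over untreated, Acacb was at 0.45 in BA-like and -1.19 in PC-like nuclei. For denervated over sham, Slc25a1 was at 0.58 in EC-like and -0.64 in white-like nuclei. Acacb was at 0.54 in EC-like and 1.21 in PC-like nuclei, and at -0.20 in BA-like and -0.69 in white-like nuclei. Thrsp was at 0.10 in BA-like, 1.25 in EC-like and 2.04 in PC-like nuclei, and at -0.58 in white-like nuclei. The signs in BA-like nuclei turned under some alternatives. For denervated over untreated, Thrsp was at 0.084 and Acaca at -0.12 in matched nuclei, and Acaca was at -0.064 and Acacb at -0.25 by mean log2 values, by which Thrsp was at -0.63 for denervated over sham. The 3 comparisons share libraries, and adipocyte-defining genes also had UMIs in the vascular classes. Their median in EC-like nuclei was 19.97% of the BA-like level in untreated, 14.3% in sham and 31.6% in denervated. Subtraction of ambient RNA left Acaca at 0 in untreated EC-like nuclei, and the part of free RNA in these vascular ratios was not tested. In PC-like nuclei Thrsp rested on 72 denervated and 58 sham UMIs, and Acacb on 30 and 43.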

How the results depend on the processing

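Alternatives were run for 6 comparisons, those between classes in the untreated library and between libraries in BA-like nuclei, and not for the other class comparisons of the report or for the wider list of 65 genes. In these 6 the median log2 ratio over the members kept its sign under every alternative tried, and 49 medians lay within the counting interval while 17 moved beyond it. The BA-like over EC-like median in the untreated library (3.09) was 3.32 with at most 10% mitochondrial UMIs, 3.36 as a difference of mean log2 values and 3.71 after subtraction of ambient RNA, which left Acss2 and Acaca at 0 in EC-like nuclei and so without a value. Over PC-like nuclei (3.50) it was 2.59 without doublet removal and 4.19 after subtraction. White-like over BA-like (-0.54) was -1.25 by mean log2 values and -0.23 against the heat shock-high cluster. Denervated over untreated (-0.42) was -0.38 with at least 500 genes, -0.33 thinned, -0.28 in the largest clusters, -0.12 matched on UMIs and -0.86 by mean log2 values. Sham over untreated (-1.59) was -1.51 by mean log2 values. Denervated over sham (1.55) was 0.82 by mean log2 values, 1.48 on totals without mitochondrial UMIs, 1.59 matched and 1.62 in the largest clusters.

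Of the values for single members and the heat shock-high clusters at matched UMIs, 449 stayed within the counting interval, 203 moved beyond it and 9 changed sign, counting only members whose interval was clear of 0. Among those within counting error, Srebf1 went from 0.03 to -0.45 for denervated over untreated by mean log2 values. By mean log2 values Acaca was at -0.64 for white-like over BA-like and -0.064 for denervated over untreated, Acacb at -0.25 for denervated over untreated and Thrsp at -0.63 for denervated over sham. Against the heat shock-high cluster Acaca was at -0.23 and Slc25a1 at 0.14. Matched on UMIs, denervated over untreated was -0.12 for Acaca, 0.015 for Fasn and 0.084 for Thrsp. The causes were not tested. No paired analysis was possible because each condition has 1 library. The comparisons of largest clusters and against the heat shock-high cluster were chosen after seeing the data.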
